A study of Homo sapiens with 4 samples.

Results

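The cytosolic ribosomal protein genes encode the protein components of the ribosome that translates messenger RNA in the cytoplasm. They were chosen by symbol alone, as protein-coding GENCODE genes named RPL or RPS and a number, with RPLP0, RPLP1, RPLP2 and RPSA, and without the RPS6K kinases and all pseudogenes. The rule gave 87 of 20033 protein-coding genes, 53 of the large subunit (RPL) and 34 of the small subunit (RPS). Among them, 10 are paralogs with symbols such as RPL10L, RPL22L1 or RPS27L. No measured value entered the rule, and no filter removed a gene. Earlier results of these data were known when the set was chosen.

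The data were maps of the transcription factor GATA3 in H1 cells, an established line of human embryonic stem cells (hESCs). The cells were held on Matrigel in mTeSR1 medium to which BMP4 was added (50 ng/ml) for 6 h, and their chromatin was recovered with 1 GATA3 antibody and sequenced (ChIP-seq). A list of peak positions from each of 2 ChIP replicates was analysed. The 2 input chromatin samples, which had the same treatment, entered only through the authors' peak calling, and no GATA3 ChIP of untreated cells was analysed here. The study's methods call the replicates biological. All values come from 1 cell line at 1 time point, so the maps hold no contrast with and without BMP4.

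The ribosome is built from a large and a small subunit, each made of ribosomal RNA and many proteins that are needed in near-equal amounts. The genes of these proteins are transcribed at high levels in growing cells, from promoters with a pyrimidine-rich start site and commonly without a TATA box. GATA factors bind short sites with the core letters GATA, mostly at enhancers away from start sites. Earlier work placed GATA3 in trophectoderm specification, and the study describes it as an early commitment gene when BMP4 drives hESCs to differentiate. Ribosomal protein genes thus served as a housekeeping set in which to read how GATA3 positions lie around promoters that most cells use.

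The 4 places shown next are among those nearest to the 5′ end of a ribosomal protein gene, with up to 90 bases to each side of the deposited position. They are hg38 sequence on the plus strand, and capitals mark a GATA motif, meaning AGATAA or AGATAG or TGATAA or TGATAG on either strand. The first 3 were positions of 1 replicate within 1 kb of a start, and the RPL18 place was the nearest region found in both replicates.
RPS13, chr11:17077863-17078043: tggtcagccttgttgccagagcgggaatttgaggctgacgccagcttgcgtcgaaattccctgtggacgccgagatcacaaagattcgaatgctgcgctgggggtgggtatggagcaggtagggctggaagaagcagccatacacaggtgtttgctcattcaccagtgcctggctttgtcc
RPL35, chr9:124861553-124861733: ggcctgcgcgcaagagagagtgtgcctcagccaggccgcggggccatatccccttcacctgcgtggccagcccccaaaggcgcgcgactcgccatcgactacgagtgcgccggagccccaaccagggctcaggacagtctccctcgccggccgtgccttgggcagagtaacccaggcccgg
RPL12, chr9:127452085-127452209: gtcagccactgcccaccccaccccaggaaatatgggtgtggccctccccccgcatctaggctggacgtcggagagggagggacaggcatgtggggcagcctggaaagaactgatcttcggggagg
RPL18, chr19:48623575-48623755: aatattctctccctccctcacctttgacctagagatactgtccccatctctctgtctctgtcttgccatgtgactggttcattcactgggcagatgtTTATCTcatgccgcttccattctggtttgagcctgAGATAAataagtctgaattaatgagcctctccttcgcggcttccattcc
The RPL12 stretch has 125 bases because it stops before an untranslated region. No capitals stand in the 3 promoter sequences, while the RPL18 sequence holds 2 GATA motifs.

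On chromosomes 1 to 22, X and Y, replicate 1 listed 18456 positions and replicate 2 listed 12782. A replicate 1 and a replicate 2 position no more than 100 bp apart were joined as a shared region, with their mean as its centre, and 9145 such regions were found. The lists held no read counts, and the study's methods give only a mean aligned count over the ChIP and input samples. The read depth of each replicate is therefore unknown. Intervals given below are 95% Wilson intervals (CI) over genes or positions that cover counting error only. With no untreated sample, no difference between conditions could be tested, and each count of ribosomal protein genes is set beside the share of all protein-coding genes without a test.

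No ribosomal protein gene had a shared GATA3 region at its promoter. Within 1 kb of the 5′ end on either side, 0 of 87 genes had one (0%, CI 0 to 4.23%), where 2.42% of all protein-coding genes did. The share of all genes lay inside the interval, so with these starts a lower share among ribosomal protein genes was not detectable with 87 genes. This reading depended on the start used. With the nearest start of any transcript, 0 of 87 ribosomal protein genes stood against 4.41% of all genes, just above the interval.

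Taken singly, the replicates placed a position at 4 of these promoters, and none was seen by the other replicate. Replicate 1 had positions at RPL35 and RPL12, 2 of 87 genes (2.30%), against 4.84% of all genes. Replicate 2 also had them at 2 of 87 (2.30%), RPS13 among them, against 3.69% of all genes. With either replicate counted, 4.60% of the ribosomal protein genes had a position (CI 1.80 to 11.2%), and 5.75% of all genes did. By subunit this was 2 of 53 large-subunit genes (3.77%) and 2 of 34 small-subunit genes (5.88%).

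**Figure D1:**
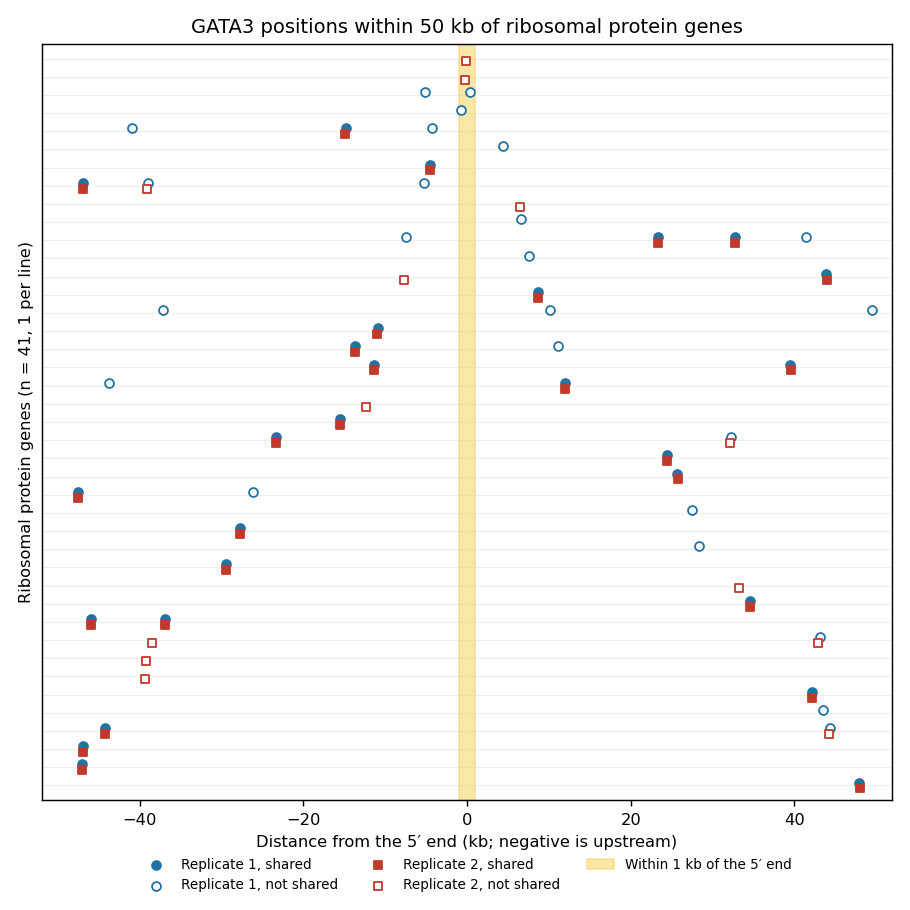
Positions of replicate 1 and of replicate 2 around the 41 ribosomal protein genes with a position within 50 kb. They are plotted by signed distance from the 5′ end in kb (negative is upstream), 1 gene per line in order of the nearest position. Filled symbols are positions shared between the replicates, and open symbols are positions that are not shared. The 4 positions within 1 kb of a start belong to 1 replicate each, and the nearest shared region, at RPL18, lies 4.48 kb upstream.

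RPS13, a protein of the small subunit, had a replicate 2 position at chr11:17077953, 238 bp upstream and inside the span of PIK3C2A but outside its canonical transcript. The nearest replicate 1 position was 121 kb from the RPS13 start.

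The large-subunit gene RPL35 had a replicate 1 position at chr9:124861643, 338 bp downstream of its start in an intron of RPL35 itself. Replicate 2 came no nearer than 104 kb to that start. RPL12, whose protein lies at the base of the ribosomal stalk, had a replicate 1 position at chr9:127452119, 713 bp upstream. That position fell in an intron of LRSAM1, a ubiquitin ligase gene that is transcribed away from RPL12 with its start 0.083 kb from the RPL12 start. Replicate 2 came no nearer than 148 kb. RPL35 has such a divergent neighbour too, ARPC5L, with its start 0.149 kb away. These genes therefore had shared regions only far off, at 132 kb for RPS13, 141 kb for RPL35 and 148 kb for RPL12.

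The 4 promoter positions, 3 of which are printed above, lacked the GATA motif. In the 200 bp around each, 0 of 4 held it (CI 0 to 49.0%). Among 690 positions at promoters of any protein-coding gene that were likewise seen by 1 replicate only, 41.4% held it (CI 37.8 to 45.2%), which lies inside the wide interval of the 4. Shared regions at promoters held a GATA motif in 64.8% of 432 cases, and 77.4% of all 31238 positions of both lists did. None of the other 6 motifs searched was found in the 4 windows either. A match is a description of the letters and not a bound site, and the lack of a match says nothing about the factor. With 400 bp around each position, 1 of the 4 windows held a GATA motif.

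Of the distances tried from the 5′ end, only at 10 kb did the share of all genes leave the ribosomal protein interval. At 2 kb, 3.58% of all genes had a shared region, inside the 0 to 4.23% of ribosomal protein genes. At 5 kb it was 5.87%, inside 0.203 to 6.23%. Within 10 kb, RPL18 and RPS12 had one, 2 of 87 genes (2.30%, CI 0.633 to 8.0%), against 8.69% of all genes, which lay just above the interval. Without the 10 paralogs the interval was 0.715 to 8.98% and held that share. With either replicate counted the gap was small, since 14 of 87 genes had a position within 10 kb (16.1%, CI 9.83 to 25.2%) and 17.9% of all genes did. In 12 of those 14 genes, then, the position was not matched by a shared region.

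Of the positions within 10 kb of a ribosomal protein start, 2 of 11 in replicate 1 were shared (18.2%, CI 5.14 to 47.7%), as were 2 of 6 from replicate 2 (33.3%, CI 9.68 to 70.0%). Around all protein-coding starts the shares were 50.7% and 68.9%. Within 50 kb the ribosomal protein genes were close to those, with 27 of 51 replicate 1 positions shared (52.9%, CI 39.5 to 65.9%) beside 27 of 40 from replicate 2 (67.5%, CI 52 to 79.9%). The corresponding shares around all genes were 49.8% and 70.3%.

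RPL18, a large-subunit protein, had the nearest shared region. Replicate 1 listed chr19:48623663 and replicate 2 chr19:48623667, and the centre was 4481 bp upstream. The region lay in an intron of SPHK2, a sphingosine kinase gene transcribed away from RPL18 with its start 0.107 kb from the RPL18 start. It was 4.37 kb from the SPHK2 start and so nearer to that gene. RPS12, of the small subunit, had its shared region 8.70 kb downstream in intergenic sequence, at chr6:132823246 in replicate 1 and chr6:132823289 in replicate 2, with no GATA motif in the 200 bp around the centre.

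At 50 kb the ribosomal protein genes had shared regions about as often as other genes. A shared region lay within 50 kb of 24 of 87 genes (27.6%, CI 19.3 to 37.8%) and of 27.2% of all protein-coding genes. By replicate, 34 genes had a replicate 1 position (39.1%, against 44.7% of all genes) and 32 had a replicate 2 position (36.8%, against 34.8%). Either replicate gave 41 genes (47.1%, CI 37.0 to 57.5%), against 48.7% of all genes.

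The 87 genes divide fully. Besides the 24 with a shared region within 50 kb, 1 gene, RPL24, had positions of both replicates there that were not within 100 bp of each other. A replicate 1 position alone was found at 9 genes and a replicate 2 position alone at 7. The remaining 46 genes had no position of either replicate within 50 kb. RPL24 was named after its values were seen.

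The 24 genes had 24 different nearest shared regions, 14 beside large-subunit and 10 beside small-subunit genes. The regions lay upstream of the start in 15 genes and downstream in 9. In 16 of the 24, another protein-coding start was nearer to the region than the ribosomal protein start, and 6 regions were within 1 kb of such a start. Inside another protein-coding gene lay 12 of the regions, against 2 inside the ribosomal protein gene's own span. The same counts were not made for all protein-coding genes. They therefore describe these 24 genes only and cannot set them apart from other genes.

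Of the small-subunit genes, RPS15A had its region 11.0 kb upstream in an intron of ARL6IP1. RPSA, whose product also serves as a laminin receptor, had it 12 kb downstream in the span of RPSA but outside the canonical transcript. For RPS27 the region lay 13.7 kb upstream in an intron of JTB and 0.580 kb from the JTB start. RPS14, the small-subunit gene lost in the 5q- syndrome, had a shared region 14.8 kb upstream. RPS4Y1, a copy of RPS4X, had it 44 kb downstream and RPS25 had it 46.9 kb upstream. These distances run without a group near the starts, and RPS12 at 8.70 kb is the nearest of the small-subunit genes.

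Of the large-subunit genes after RPL18, RPL6 was next, with a region 15.5 kb upstream in an intron of PTPN11, which encodes the phosphatase SHP2. RPL8 had its region 23.3 kb upstream and RPL23A, a protein near the exit of the peptide tunnel, 23.4 kb downstream in an untranslated region of NEK8, 0.655 kb from the start of TRAF4. RPL10A, part of the mobile L1 stalk, had it 24.5 kb downstream in an intron of TEAD3, a partner factor of the Hippo pathway. The paralog RPL26L1 had it 25.8 kb downstream in an intron of ATP6V0E1 and 0.712 kb from that gene's start.

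RPL34 had its region 27.7 kb upstream in an intron of the divergent transcript RPL34-DT. For RPLP0, the stalk protein that holds RPLP1 and RPLP2, the region lay 29.5 kb upstream in an intron of PXN, which encodes the adhesion protein paxillin. RPL39 had it 34.6 kb downstream, and RPL17 had it 36.9 kb upstream with 3 GATA motifs in the 200 bp around the centre. RPL41, among the smallest ribosomal proteins, had it 42.2 kb downstream in an intron of the myosin light chain gene MYL6, and RPL19 had it 47.0 kb upstream. At the other end, the ribosomal protein genes farthest from a shared region included RPS4Y2 at 1610 kb and RPL13A at 864 kb.

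Summed over the genes, 27 shared regions lay within 50 kb of a ribosomal protein start, and 3 genes, RPL23A and RPL17 among them, had 2 each. A GATA motif stood in the 200 bp around 19 of the 27 (70.4%, CI 51.5 to 84.1%). It stood around 79.4% of the 3834 shared regions within 50 kb of any protein-coding start and around 82.0% of all shared regions, and both shares lay inside the interval. RPS12, RPS15A, RPS27, RPL23A, RPL26L1, RPS4Y1 and RPL19 were among the genes whose nearest shared region held none.

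The median distance from a ribosomal protein start to the nearest shared region was 141 kb, with quartiles of 47.3 and 244 kb, and the 95% interval of the median was 89.6 to 191 kb. Over all protein-coding genes the median was 118 kb, with quartiles of 44.8 and 248 kb, inside that interval. Large-subunit genes had a median of 155 kb and small-subunit genes 104 kb. With replicate 1 alone the medians were 77.3 kb for ribosomal protein genes and 60.4 kb for all genes, and with replicate 2 alone 84.5 and 85.6 kb, so the order of the pair turned between the lists.

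**Figure D2:**
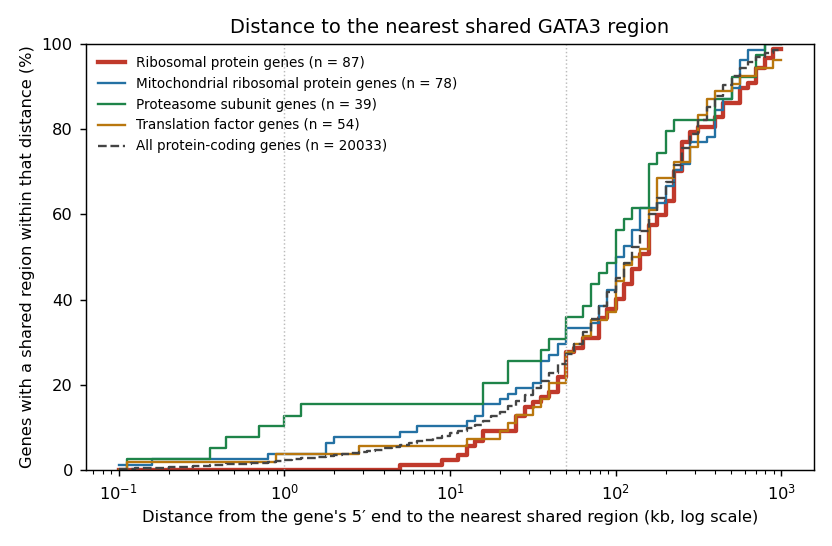
Cumulative share of genes in percent against the distance from the 5′ end to the nearest shared region in kb, on a log axis, for ribosomal protein genes, all protein-coding genes and the 3 comparison sets. The ribosomal protein line stays at 0 up to RPL18 at 4.48 kb, lies under all genes at 10 kb (2.30% against 8.69%) and meets them at 50 kb (27.6% against 27.2%).

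Read in steps of distance, the nearest shared region was 1 to 5 kb away for 1 ribosomal protein gene (1.15%, CI 0.203 to 6.23%, against 3.45% of all genes) and 5 to 10 kb away for 1 (1.15%, with the same CI, against 2.82%). It was 10 to 50 kb away for 22 genes (25.3%, CI 17.3 to 35.3%, against 18.5%). Farther out it was 50 to 100 kb away for 11 genes (12.6%, CI 7.21 to 21.2%, against 17.8%), 100 to 250 kb for 32 (36.8%, CI 27.4 to 47.3%, against 30.3%) and over 250 kb for 20 (23%, CI 15.4 to 32.9%, against 24.7%). In each of these steps the share of all genes lay inside the interval of the ribosomal protein genes.

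The density of regions, in regions per Mb of flanking sequence, rests on few regions around the ribosomal protein genes and is a description only. Shared regions within 1 kb of a start had a density of 0 per Mb at ribosomal protein genes and 12.2 per Mb over all genes. From 1 to 5 kb it was 1.44 against 4.60 per Mb, and from 5 to 10 kb 1.15 against 3.21 per Mb, with 1 region each around the ribosomal protein genes. From 10 to 50 kb it was 3.59 per Mb around ribosomal protein genes, from 25 regions, and 3.08 per Mb around all genes. Over all genes the density was highest within 1 kb, where the ribosomal protein genes had no shared region.

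Other genes that most cells use were compared as sets chosen by symbol: 78 mitochondrial ribosomal protein genes, 39 proteasome subunit genes and 54 translation factor genes. Within 1 kb, 3 mitochondrial ribosomal protein genes had a shared region (3.85%, CI 1.32 to 10.7%), as did 5 proteasome genes (12.8%, CI 5.60 to 26.7%) and 2 translation factor genes (3.70%, CI 1.02 to 12.5%). The interval of the proteasome genes lay above the 4.23% that bounds the cytosolic ribosomal protein genes, and those of the other sets overlapped it. Within 10 kb the shares were 10.3% (CI 5.29 to 19.0%), 15.4% (CI 7.25 to 29.7%) and 5.56% (CI 1.91 to 15.1%), beside 2.30% for cytosolic ribosomal protein genes.

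Within 50 kb the sets came together, at 33.3% of mitochondrial ribosomal protein genes, 35.9% of proteasome genes and 27.8% of translation factor genes, beside 27.6%. Median distances to the nearest shared region were 102, 94.3 and 127 kb in the same order, beside 141 kb. The cytosolic set thus had the lowest share at each of the 3 distances, with overlapping intervals except against proteasome genes within 1 kb. That separation was lost at 0.5 kb, where the interval of the proteasome genes began at 2.65%, and with either replicate counted, where the intervals were 1.80 to 11.2% and 7.25 to 29.7%. Differences between the sets were not tested.

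**Figure D3:**
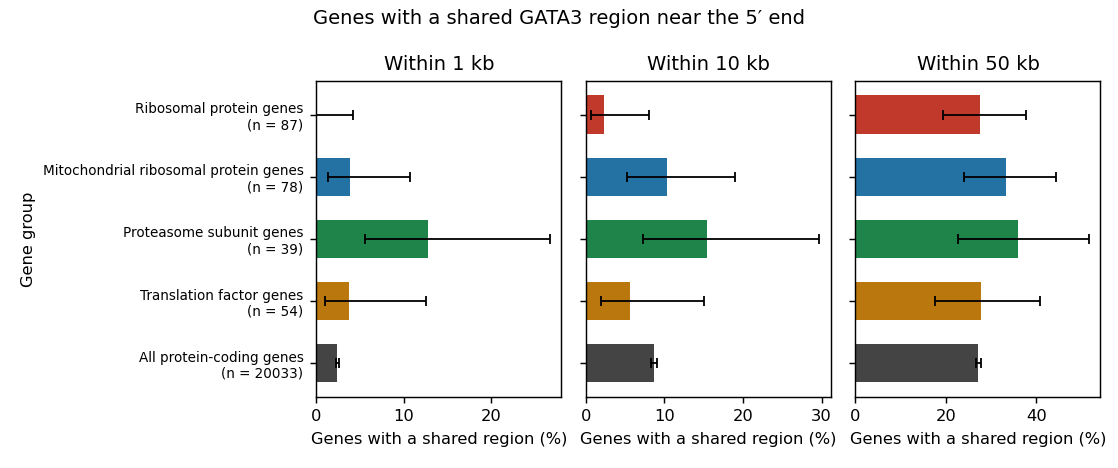
Share of genes in percent with a shared region within 1, 10 and 50 kb of the 5′ end, for ribosomal protein genes, the 3 comparison sets and all protein-coding genes, with 95% Wilson intervals as bars. Ribosomal protein genes stand at 0%, 2.30% and 27.6%, and the proteasome genes have the highest share at each distance.

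The ribosomal protein genes also differed from the average gene in their surroundings. The nearest other protein-coding start was at a median of 10.9 kb, against 24 kb over all genes, and a mean of 3.10 other starts lay within 50 kb, against 1.96. A divergent start within 1 kb was found at 12 of 87 genes (13.8%, CI 8.07 to 22.6%), against 7.96% of all genes. Mitochondrial ribosomal protein, proteasome and translation factor genes leaned the same way, so this was not particular to the cytosolic set. Their nearest other starts were at medians of 6.36, 15.3 and 20.9 kb, and means of 2.74, 2.31 and 2.35 starts lay within 50 kb. Divergent starts were found at 21.8%, 12.8% and 13.0% of them. GC content from 250 bases before to 50 bases after the start had a median of 58.7%, close to the 60.3% of all promoters. A region near a neighbouring start counts for the ribosomal protein gene too, and the part of these neighbours in the counts at 50 kb was not tested.

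When all genes were put in 5 equal bins of promoter GC content, from low to high, 12, 29, 28, 13 and 5 ribosomal protein genes fell in each. The share of all genes with a shared region within 1 kb was 1.80%, 2.50%, 3.07%, 2.62% and 2.10% in these bins. The 4 genes with a position of 1 replicate at the promoter stood 3 in the middle bin and 1 in the highest.

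The ETS core was more frequent in ribosomal protein promoters than in all promoters under each window tried. The ETS core CCGGAA, the letters shared by sites of ETS factors, stood on either strand in 39 of 87 promoters (44.8%, CI 34.8 to 55.3%) against 19.5% of all protein-coding promoters. Mitochondrial ribosomal protein promoters held it in 51.3% and proteasome promoters in 43.6%, so it was not particular to the cytosolic set. With the start of the canonical transcript in place of the gene's 5′ end, the shares were 56.3% for ribosomal protein promoters and 22.8% for all.

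GATA motifs were no rarer in these promoters than elsewhere by more than the counting error. They stood in 17 of 87 (19.5%, CI lower bound 12.6%) against 21.9% of all promoters, and the reversed letters AATAGA or AATAGT or GATAGA or GATAGT, a control for composition, in 14 (16.1%) against 18.6%. A match to GATAGA or GATAGT can overlap a match to a GATA motif. The promoters with a GATA motif included those of RPL13, RPL19, RPL21, RPL23, RPL30, RPL35, RPL36A, RPL39, RPL39L, RPL3L, RPL4, RPS10, RPS12, RPS27L, RPS4Y1 and RPS4Y2. The 5′ end used is the outermost start in GENCODE and can lie far from the start in another annotation, RefSeq. Of 70 members with a RefSeq promoter, 54 had both starts within 100 bp, and for RPL4 they were 19.7 kb apart. At canonical starts, 14 of 87 promoters held a GATA motif (16.1%, against 18.4% of all).

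Whether a GATA motif goes with a shared region could not be read from this set, since no member had a shared region within 1 kb. Among the 17 promoters with the motif, 1, that of RPL35, had a position of either replicate within 1 kb, and among the 70 without it 3 had one. Over all genes, 3.35% with a GATA motif in the promoter had a shared region within 1 kb and 2.15% without did.

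Of the other letters searched on both strands, the GC box GGGCGG stood in 43 promoters (49.4%, against 52.4% of all), TATAA in 16 (18.4%, against 18.7%) and the octamer ATGCAAAT in 1 (1.15%, against 1.70%). The YY1-type motif AAGATGGC stood in 5 (5.75%, CI 2.48 to 12.8%, against 3.03%), while mitochondrial ribosomal protein promoters held it in 19.2% (CI 12 to 29.3%). For YY1-type the reading depended on the window. At canonical starts it stood in 12.6% of ribosomal protein promoters (CI 7.21 to 21.2%) against 4.04% of all, and in the 500 bases on each side of the start in 14.9% (CI 8.95 to 23.9%) against 7.04%, both outside the interval. The GC box also left its interval in the wider window, at 81.6% (CI 72.2 to 88.4%) against 72.0%. For the GATA motif, its reversed letters, TATAA and the octamer, the share of all promoters lay inside the interval in all 3 windows.

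**Figure D4:**
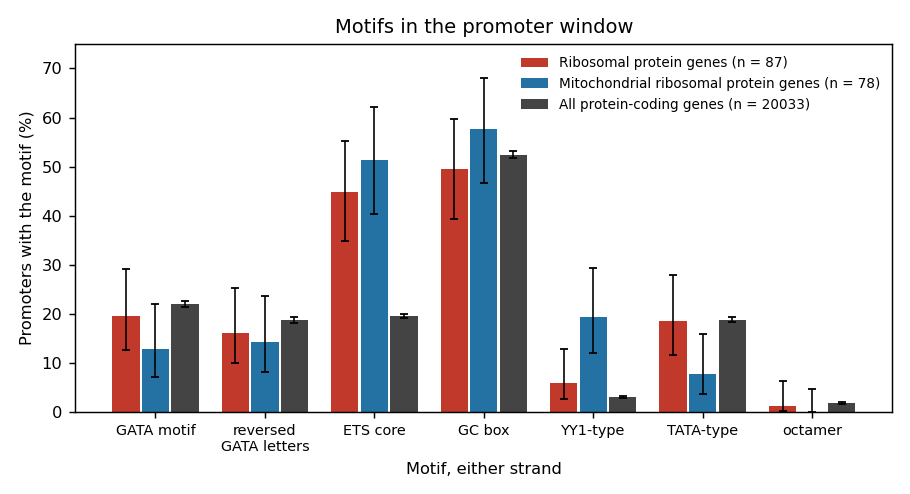
Share of promoters in percent that hold each of 7 motifs from 250 bases before to 50 bases after the 5′ end, with 95% Wilson intervals as bars. Ribosomal protein genes, mitochondrial ribosomal protein genes and all protein-coding genes are drawn. The ETS core stands in 44.8%, 51.3% and 19.5% of promoters in that order, and the GATA motif in 19.5%, 12.8% and 21.9%.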

How the data were processed

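The deposited lists gave, per ChIP replicate, for each peak a single hg38 base position and the name of a gene, with no width, score or count, and the lists differ in length from the peak sets that the study's methods describe. Per the study's methods, the authors trimmed reads with cutadapt, aligned them with bowtie, removed duplicates with Picard, dropped multiply mapped reads and blacklisted regions, and called peaks per replicate against its own input with MACS2 (q 0.05). How a peak became 1 position, and whether bases count from 0, is not given in the sources used here. Distances to the 5′ end of each GENCODE release 44 gene, links within 100 bp, and motif matches in hg38 were computed in Python 3.11.15 with numpy 2.4.6, pandas 2.3.3, scipy 1.17.1 and pysam 0.24.0, and figures were drawn with matplotlib 3.10.9. The counting was checked on simulated positions. Genes named are those with a position within 1 kb, then those with a shared region within 50 kb by distance up to 25 in all, then the 3 farthest, and some items under this rule are not reported here. The genes, comparison sets and motifs were chosen with earlier results of these data known. No test was run. Alternatives covered the linking distance, gene distance, start site, membership, motif window and each replicate alone.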

Additional observations from a re-analysis of the deposited data

How the results depend on the processing

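Linking distances of 50, 250 and 500 bp, other start sites, promoter distances of 0.5 and 2 kb and each subunit alone left the ribosomal protein genes at 0 shared regions within the promoter distance. Each replicate alone gave 2.30%, and a promoter distance of 5 kb gave 1.15%. Within 50 kb, the replicates alone gave 36.8 to 39.1%, and distances of 10 and 100 kb gave 2.30% and 40.2%. The median distance was 77.3 to 84.5 kb with 1 replicate alone. Over all genes within 1 kb, linking at 50, 250 and 500 bp gave 1.90%, 2.74% and 2.80%, 1 replicate alone 3.69 to 4.84%, the start of any transcript 4.41%, and distances of 0.5, 2 and 5 kb 1.41%, 3.58% and 5.87%. Over all genes within 50 kb, the same linking distances gave 22.8%, 29.3% and 29.6%, 1 replicate alone 34.8 to 44.7%, the start of any transcript 33.4%, and distances of 10 and 100 kb 8.69% and 45.0%. In promoters widened to 500 bases on each side, the shares were 57.5% for GATA (53.8% of all promoters), 47.1% for its reversed letters (48.0%), 67.8% for the ETS core (37.2%), 81.6% for the GC box (72.0%), 14.9% for YY1-type (7.04%) and 40.2% for TATAA (43.0%), and the ETS core stood in 56.3% at canonical starts (22.8%). Of 76 alternatives over 14 results, 47 stayed within the counting error. Against all genes the order turned in places. The member median was above that of all genes (141 against 118 kb) and below it with replicate 2 alone (84.5 against 85.6 kb). The 50 kb share was above that of all genes (27.6% against 27.2%). It was below with replicate 1 alone (39.1% against 44.7%) and at 100 kb (40.2% against 45.0%). Linking at 250 bp (28.7% against 29.3%) and 500 bp (28.7% against 29.6%) also put it below. So did the nearest start of any transcript (28.7% against 33.4%) and 10 kb (2.30% against 8.69%). Linking at 50 bp (24.1% against 22.8%), replicate 2 alone (36.8% against 34.8%) and canonical starts (28.7% against 27.2%) kept it above. A wider window holds more letters by construction, and the list of 1 replicate holds more positions than the shared regions. Other causes were not tested. No paired analysis was possible because only the ChIP replicates had a list, so no groups sharing replicate numbers were compared. Peaks of low enrichment could not be set aside, as the lists hold no scores.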

Other observations

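Ribosomal protein genes have many processed pseudogenes, copies of their messenger RNA put back into the genome, and 1600 annotated pseudogenes carry a member's name. Of these, 7 had their 5′ end within 1 kb of a shared region (0.438%, CI 0.212 to 0.90%), beside 0.309% of 15233 annotated pseudogenes of all kinds. A position of either replicate lay within 1 kb of 19 (1.19%, beside 1.02%). Shared regions with the centre inside the pseudogene were found in 4 (0.25%, beside 0.656%). A longer pseudogene can hold more positions by construction, and lengths were not compared.

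Each line of the deposited lists carries a gene name. A member's name stood on 8 of 18545 lines in replicate 1 (0.0431%) and on 8 of 12870 in replicate 2 (0.0622%). Names of pseudogene form, a ribosomal protein symbol followed by P and a number, stood on 402 (2.17%) and 264 (2.05%) lines. These names were not matched to the 1600 annotated pseudogenes. The 87 genes are far fewer than the pseudogenes, and names of other genes were not counted. The members named included RPL10L, RPL35, RPL6, RPS14 and RPS25 in replicate 1, and RPL10L, RPL6, RPS13 and RPS14 in replicate 2. RPL10L, RPL6 and RPS14 were in both.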
